A study of Drosophila melanogaster with 2 samples.

Results

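Of 3974 reproducible binding sites of GFP-tagged Six4 in Drosophila embryos, 787 had their summit 501 to 2000 bp from the nearest transcription start site (TSS) of a protein-coding gene. These proximal peaks make up 19.8% of the set (exact 95% interval 18.57 to 21.08%). A further 1861 peaks lay within 500 bp of a TSS and are called promoter peaks here, and 1326 lay more than 2000 bp away and are called distal peaks. Members were chosen by position alone, on build dm6, with every annotated transcript of a protein-coding gene counted and both sides of the TSS allowed. The chromatin came from whole embryos aged 0 to 16 hours, both sexes pooled, of a transgenic line that stably expresses Six4 with GFP at its C terminus. It was sheared to 200 to 800 bp by sonication and immunoprecipitated with an antibody to GFP. Both libraries, biological replicates 1 and 3, belong to this 1 group, and no untagged or input library was analysed here. All tissues of the embryo were mixed, so the cells in which a site was bound are not known.

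Six4 belongs to the sine oculis family of homeodomain transcription factors, which bind DNA through a family-specific domain and a homeodomain and can act with the co-activator Eya. In the fly embryo Six4 is known for roles in the mesoderm, in muscle formation and in the somatic cells of the gonad. Regulatory DNA in flies is compact. The first introns and the intergenic sequence near a TSS often carry enhancers, whereas the core promoter itself carries words bound by general promoter factors.

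The strongest proximal sites, ranked by their signal in the joint set, are shown first. The signal of a peak is the authors' own value and was used to rank peaks within a list. Each run is 121 bases of dm6 around the summit, read from the RefSeq assembly on the plus strand. Capitals mark any of the 5 hexamers, on either strand, that had the highest ratio of summit to flank frequency among those called more frequent and present at 2% or more of proximal summits, whose values follow the other results. The positions are chr2L:6612671-6612791 for CG11050, chr2L:480995-481115 for cbt, chr3R:11760985-11761105 for Lk6, chrX:4910312-4910432 for CG32772, chr2L:3302131-3302251 for CG9663 and chr3R:5215463-5215583 for cno.
CG11050: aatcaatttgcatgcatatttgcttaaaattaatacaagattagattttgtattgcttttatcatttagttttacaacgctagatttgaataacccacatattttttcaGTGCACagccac
cbt: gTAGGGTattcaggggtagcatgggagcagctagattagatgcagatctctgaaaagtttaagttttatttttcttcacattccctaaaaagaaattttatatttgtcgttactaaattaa
Lk6: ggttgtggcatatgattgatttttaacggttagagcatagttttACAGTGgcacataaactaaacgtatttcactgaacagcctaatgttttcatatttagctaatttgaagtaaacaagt
CG32772: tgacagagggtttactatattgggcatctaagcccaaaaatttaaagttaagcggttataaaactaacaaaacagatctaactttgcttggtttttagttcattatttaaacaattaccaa
CG9663: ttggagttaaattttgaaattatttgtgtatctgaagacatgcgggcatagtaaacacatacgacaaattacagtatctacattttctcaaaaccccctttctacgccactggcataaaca
cno: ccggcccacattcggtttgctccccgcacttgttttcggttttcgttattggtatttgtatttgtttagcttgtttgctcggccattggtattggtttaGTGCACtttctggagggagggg

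Of these 6 windows, 4 held 1 of the hexamers and 2 held none. Over all 787 proximal summits, 444 (56.4%) had at least 1 of the 5 within 100 bp, against 197 (25%) of equal windows 1000 bp farther from the TSS. Among all 201 bp tiles of the proximal zone 27.6% held 1. The 5 hexamers were picked for their ratio in these same windows. The difference between summits and flanks is thus in part given by that choice and has no test.

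The word TGATAC, the core of sites bound by proteins of the Six4 type, is shown for the 5 strongest proximal peaks that had it within 100 bp of the summit. Each run is 51 bases with TGATAC in capitals, read on the strand on which the word occurs. The positions are chr2L:3302070-3302120 (minus strand) for CG9663, chrX:5918810-5918860 (minus) for CG3726, chr2L:1075999-1076049 (minus) for S, chr2L:14547056-14547106 (plus) for CG4218 and chr2L:16720757-16720807 (plus) for Cyt-c-p.
CG9663: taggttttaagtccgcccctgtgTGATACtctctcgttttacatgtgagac
CG3726: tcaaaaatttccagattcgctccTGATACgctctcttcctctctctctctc
S: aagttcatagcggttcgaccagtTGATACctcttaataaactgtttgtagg
CG4218: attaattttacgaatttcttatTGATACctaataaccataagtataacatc
Cyt-c-p: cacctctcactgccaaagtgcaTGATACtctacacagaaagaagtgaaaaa

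The last set shows CAGTGTAG, the word with the largest contrast between proximal summits and flanks among the 959 words of 8 letters found at 20 or more proximal summits, at the 5 strongest proximal peaks that carried it. The positions are chrX:5696569-5696619 (plus strand) for CG3149, chrX:493923-493973 (plus) for CG17896, chr3R:13401159-13401209 (plus) for GILT1, chrX:12472263-12472313 (minus) for CG42258 and chr2L:16500685-16500735 (minus) for Tpr2. The word is in capitals.
CG3149: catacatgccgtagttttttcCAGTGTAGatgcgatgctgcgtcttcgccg
CG17896: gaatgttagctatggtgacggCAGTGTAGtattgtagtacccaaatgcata
GILT1: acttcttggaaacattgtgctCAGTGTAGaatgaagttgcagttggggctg
CG42258: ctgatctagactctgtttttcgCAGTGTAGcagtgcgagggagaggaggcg
Tpr2: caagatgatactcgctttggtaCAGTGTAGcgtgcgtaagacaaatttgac

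Signal at the leading proximal peaks was high in both replicates. The peak in an intron of CG11050, 1044 bp downstream of the TSS, had a signal of 1400 and ranked 4 among all peaks, with 592.4 in replicate 1 and 810.9 in replicate 3. The peak nearest to cbt, which encodes the zinc finger transcription factor Cabut, had 1310 and ranked 5 in the joint set and in each replicate (550.9 and 739). Its summit lay at -1367 bp from the cbt TSS, upstream, and inside the first intron of the neighbouring gene ush. The peak of Lk6, a kinase that acts on the translation factor eIF4E, had 1033, with 451.2 and 588 in the replicates. Its summit was 966 bp upstream of the nearest TSS and in a first intron of the same gene, whose other transcripts start farther out.

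CG32772 (841.9) and CG9663 (801.8) followed with summits in first introns. The peak in cno, which encodes the junction protein Canoe, had 685.8 and stood out by its replicates, ranking 14 in replicate 1 (392.7) and 96 in replicate 3 (292.7). Trl, which encodes GAGA factor, had 620.2 and ranked 29 and 79. The remaining genes next to the 20 strongest proximal peaks were DNAlig3 (661.8), the HMG-box gene HmgZ (661), CG31635 (633.8), chif (593.5), CG9837 (582.7), NFAT (559.1), CG3726 (540.8) and the cGMP-dependent kinase gene for (537.3). Below them came CG3149 (521.7), the acyltransferase gene LPCAT (515.4), the RNA-binding protein gene mub (505.7), sp3 (487) and RasGAP1 (480.1). Of the 20, 16 lay in introns and 4, next to DNAlig3, CG3149, sp3 and RasGAP1, between genes.

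Counted over both sides, the density of peaks was highest at the TSS and lower in the proximal zone. Here 195.5 peaks per Mb lay within 100 bp of a TSS, 34.4 per Mb at 501 to 750 bp and 20.73 per Mb at 1751 to 2000 bp. The next bin, 2001 to 2500 bp, had 20.69 per Mb, and sequence beyond 10 kb had 9.614. The sides differed most close in. Downstream of the TSS the density was lowest at 201 to 300 bp, with 9.033 peaks per Mb, and was higher again in the proximal zone. At 501 to 750 bp there were 53.07 peaks per Mb upstream and 21.81 downstream, while at 751 to 1000 bp the values were 28.58 and 26.21. The median proximal distance was 1036 bp. Members just inside the bounds were tou and ITP (502 bp each), CG43901 (504 bp), CHES-1-like (1993 bp), lmd (1996 bp) and pot (1998 bp), with signals from 91.68 to 151.1. Just outside lay SREBP, Pino and Cpsf6 (500 bp each) and CG32264, Notum and CG43658 (2001, 2002 and 2002 bp), with signals from 81.15 to 203.3.

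**Figure D1:**
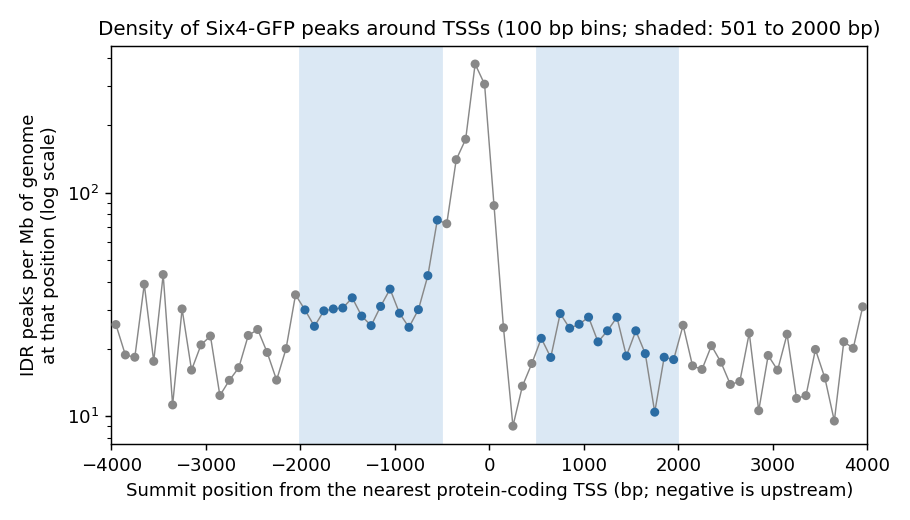
Peaks per Mb of sequence (log scale) against summit position from the nearest protein-coding TSS in bins of 100 bp, negative values upstream, with the proximal zone shaded and its bins as blue points. Upstream density in the zone lies below the promoter maximum, and density over the zone lies above 9.614 per Mb, the value beyond 10 kb.

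Whether the proximal zone held more or fewer peaks than its size gives depended on which sequence was counted. The zone covers 21.56% of the 6 arms, and the 19.8% of peaks in it gave a ratio of 0.919 (exact binomial p = 0.00692). The call was lost when the weaker 50% of the set was left out (19.78%, exact binomial p = 0.0562). Among intronic and intergenic peaks and bases alone, a comparison added after seeing the data, the zone held 732 of 3488 peaks (20.99%) on 16.14% of the bases, a ratio of 1.3 in the opposite direction (exact binomial p = 6.67e-14). In all such tests the peak is the unit, so the p-values say nothing of replicate spread, and adjacent peaks are not independent.

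Proximal peaks were intronic above all. Introns held 543 of the 787 summits (69%, exact 95% interval 65.63 to 72.21%), although they make up 35.64% of the bases in the zone, a ratio of 1.94 (exact binomial adjusted p = 7.08e-80). Intergenic sequence held 189 (24.02% against 19.17% of bases, ratio 1.25, exact binomial adjusted p = 0.00119). Coding sequence makes up 33.11% of the zone and held 3 summits (0.381%, exact binomial adjusted p = 3.45e-130), and 3′ UTRs held 15 (1.906% against 8.216%, adjusted p = 1.02e-13). Neither 5′ UTRs (17 summits, ratio 1.14, exact binomial adjusted p = 0.514) nor other exons (20 summits, ratio 1.29, adjusted p = 0.295) passed the threshold. Of the intronic summits, 440 (81.03%) were in a first intron, against 65.71% of the intronic bases of the zone (exact binomial p = 4.02e-15). Of the 787, 1 summit (0.127%) fell in an annotated transposable element, against 1.89% of the zone.

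**Figure D2:**
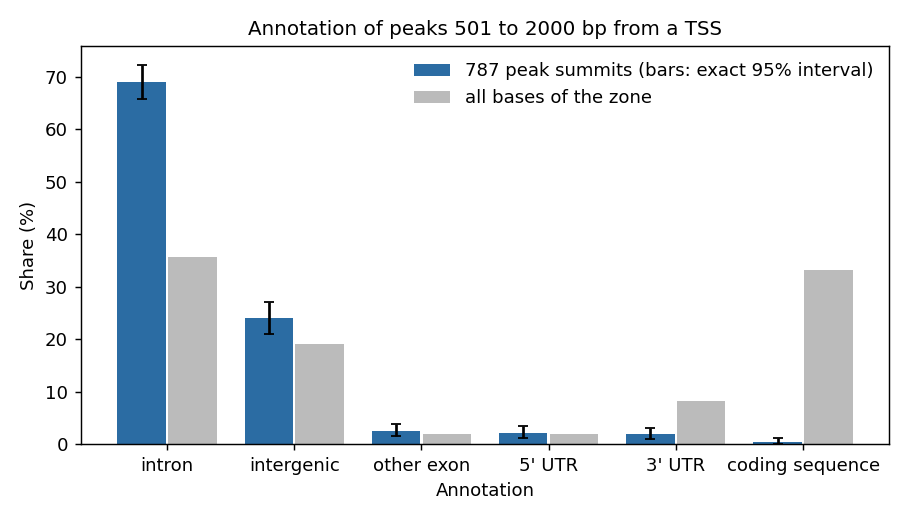
Share of the 787 proximal summits (blue, with exact 95% intervals) and of all bases of the proximal zone (grey) in each annotation, in percent. Introns hold 69% of summits on 35.64% of the bases, and coding sequence 0.381% on 33.11%.

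The summits were split evenly between the sides of the TSS, 390 upstream (49.56%) and 397 downstream. Upstream sequence makes up 38.52% of the zone, so the upstream share exceeded its bases (exact binomial p = 4.03e-10). With exons left out on both sides, a comparison added after seeing the data, the shares were 50.27% of peaks and 49.34% of bases (exact binomial p = 0.631). Between genes 167 of 189 summits (88.36%) were upstream, against 79.1% of those bases (exact binomial p = 0.0012), and in introns 201 of 543 (37.02% against 33.35%, p = 0.0758). Upstream of a TSS did not mean outside the gene. Of the 390 upstream summits 163 lay inside the nearest gene, which has another TSS farther out, 47 inside another protein-coding gene alone and 180 in none. A noncoding gene started within 500 bp of 42 of the 787 summits, and 41 of these genes were ncRNA genes. Examples were Act5C (303.9), 232 bp from the start of lncRNA:CR45668, and Boot (309.2), 69 bp from that of Uhg4, a host gene of small nucleolar RNAs. The part of the zone within 500 bp of a noncoding start was not counted. The 42 summits thus have no share to be set against.

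No chromosome arm held more or fewer proximal peaks than its part of the zone gives after adjustment. The X came nearest from above with 164 peaks (20.84% against 17.85% of bases, exact binomial adjusted p = 0.0963), and chromosome 4 from below with 1 peak (0.127% against 0.799%, adjusted p = 0.0963). Unadjusted p-values were under 0.05 for these 2 arms (0.0321 and 0.0255). The shares are not corrected for the smaller number of X copies in a pool of both sexes.

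Proximal peaks were nearest to 661 protein-coding genes, 4.74% of the 13945 annotated. Of these genes 563 had 1 proximal peak, 77 had 2, 14 had 3 and 7 had 4. The 7 genes with 4 were CG9837, NFAT, aop, CHES-1-like, shn, Tlk and tou. The ETS repressor gene aop, also called yan, had peaks of 313.3 and 93.88 between genes, 1475 and 785 bp upstream of a TSS, and intronic peaks of 108.4 and 90.19. At NFAT all 4 lay in introns and upstream of the nearest TSS, with signals of 559.1, 274.9, 166.6 and 92.54. The forkhead gene CHES-1-like had 296.9, 279.7, 158.8 and 91.68. In shn, which encodes the zinc finger protein Schnurri of Dpp signalling, signals were 250.1, 110.7, 103.2 and 98.32. Tlk, a Tousled-like kinase gene, had 4 peaks between 109.1 and 185.5, and tou had 4 between 113.9 and 162.3. The next genes by number and signal, with 3 peaks each, were HmgZ, Trl and RasGAP1. Of all proximal peaks, 29 overlapped an earlier one, leaving 758 separate regions. Genes named here were affected. The 4 peaks of tou formed 2 overlapping pairs (151.1 with 113.9, and 162.3 with 118.5). Peaks also overlapped at CHES-1-like (279.7 and 158.8), NFAT (274.9 and 166.6) and RasGAP1 (480.1 and 199.9).

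Peaks of this class had close neighbours more often than the others. Another peak of the set had its summit within 2000 bp of 311 of the 787 (39.52%, exact 95% interval 36.08 to 43.03%). The share was 28.32% for promoter peaks (Fisher's exact adjusted p = 4.58e-08) and 29.34% for distal peaks (adjusted p = 2.14e-06). The distance rule bears on this, since a peak at the TSS itself is at most 2000 bp from a proximal summit. The p-values thus draw in part on the rule. Overlapping peaks count as neighbours too, and 81 proximal peaks overlapped another peak of the set.

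Among genes of the mesoderm and its signalling, several with known parts in muscle and gonad formation carried a proximal peak. All list counts stand beside the 4.74% of protein-coding genes that had 1, and the lists were chosen with results of these data known, so they have no test. That share was not matched to the lists for number of TSSs or length of introns. Each of the 10 lists lay above it, housekeeping genes too (14.29%), so a higher share is not particular to mesoderm or signalling genes. In the mesoderm specification list 5 of 21 genes had a proximal peak. They were zfh1, a zinc finger homeodomain gene (364.9, with 163 in replicate 1 and 199.2 in replicate 3), the forkhead gene bin of the visceral mesoderm (226.3; 94.06 and 126.7), Mef2 (191.6; 84.7 and 109.8), the T-box gene Doc1 (100.1; 44.59 and 55.4) and the FGF adaptor gene stumps (90.23; 36.6 and 49.59). The peak of zfh1 was the strongest of them, and stumps fell outside the first 3974 entries of replicate 1, where it ranked 4206. The same held of CtBP in replicate 1 (rank 4385) and of CrebA (5050) and Hr38 (4157) in replicate 3, which are named with their lists, and of 1 or more of the weaker peaks of aop, fng, shn and tkv. For Mef2 the summit lay in a 5′ UTR, 1758 bp downstream of the nearest TSS.

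Of 20 muscle identity genes 1 had a proximal peak, Poxm (131.7, 612 bp upstream). Its overlapping entries in the replicates, of 108.8 and 149.8, also overlapped its promoter peak (267.6), whose summit was 213 bp away, so the replicates do not separate the 2 peaks. Of 16 genes of myoblast fusion and muscle attachment 3 did. These were mbc, a guanine nucleotide exchange factor of fusion (225.9; 112.6 and 115.4), rols, an adaptor of founder cells, with peaks of 110.5 and 109.9, and siz (94.88). The stronger peak of rols shared its replicate entries with a promoter peak 223 bp away. Of 13 somatic gonad genes 3 did, namely zfh1, the Hox gene Abd-B with peaks of 184.9 and 138.1, and dsx (100.1; 43.92 and 84.07). The replicate entries of dsx were shared with its promoter peak 231 bp away.

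Six4 itself had no proximal peak. Its own peak was of the promoter class, 243 bp upstream of the TSS with a signal of 102.5. In the list of 15 genes of its own network 1 had a proximal peak, the co-repressor gene CtBP (97.04; 35.62 and 56.87).

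Signalling genes with proximal peaks included receptors and nuclear effectors. In EGFR and Ras signalling 4 of 17 genes had 1 or more, led by edl (409.6; 159.6 and 244.9), which encodes an inhibitor of the ETS factors, and S, or Star, which helps export the ligand Spitz (357.1; 151.4 and 200.6). The others were aop and the ETS activator gene pnt (137 and 126.9). In the Wingless, Hedgehog and Dpp list 7 of 21 did. The Dpp effector Mad had 392.4 (184.4 and 203.5), the repressor brk 207.8 and 102.7, and the receptors put and tkv 141.6 and 121.8 at their strongest. From Wingless signalling came the receptor fz (221) and the kinase sgg (119.1), and shn completed the 7. In Notch signalling 3 of 14 genes had 1 or more, the co-activator nej (280.1), the ubiquitin ligase neur (167.3) and the glycosyltransferase fng (130.5 and 81.95). The pair at brk shared 1 entry in each replicate (90.8 and 122.6), so the replicates do not separate its peaks.

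Genes of fast transcriptional responses and of general cell function were present too. Of 15 immediate early and stress response genes 5 had a proximal peak, cbt, Lk6, Atf3 (247.7; 114.6 and 128.8), CrebA (97.8; 57.67 and 38.21) and Hr38 (93.06; 49.73 and 43.92). Of 14 housekeeping genes 2 did, the HSP90 gene Hsp83 (310.3; 137.8 and 170.3) and the cytoplasmic actin gene Act5C (303.9; 142.2 and 170.8). Over the 10 lists the share of genes with a proximal peak ranged from 5% to 33.33%, and no list was compared with another.

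Proximal peaks were more often among the strongest than distal peaks were, and the difference from promoter peaks did not pass the threshold. Their signal ran from 81.11 to 1400 with a median of 128.2 (quartiles 99.82 and 188.2), against medians of 134.6 at promoters and 121.1 at distal sites. Among the 500 strongest peaks of the set were 103 of the proximal peaks (13.09%, exact 95% interval 10.81 to 15.65%), 15.42% of the promoter peaks (Fisher's exact adjusted p = 0.134) and 8.296% of the distal peaks (adjusted p = 0.00112). In replicate 1 alone the difference from distal peaks was 3.2 percentage points (Fisher's exact adjusted p = 0.0521). The proximal share of the set stayed between 17.2% and 21.2% in every bin of rank, whereas the promoter share fell from 60% among ranks 1 to 250 to 41.77% among ranks 3501 to 3974. Signal was similar upstream (median 126.2) and downstream (132.5), in introns (128.6) and between genes (126.7).

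Strong proximal peaks were among the strongest entries of both replicates, and weak ones often were not. Of the 787, 617 (78.4%, exact 95% interval 75.36 to 81.23%) overlapped an entry among the 3974 strongest of replicate 1 and also of replicate 3. The share over all peaks of the set was 78.2%, close to that of the proximal peaks. All of the first 200 proximal peaks were matched, 97.5% of those ranked 201 to 400, 84.5% of those ranked 401 to 600 and 28.34% of the 187 weakest, whose signals ran from 81.11 to 98.84. Every proximal peak overlapped some entry in both full lists, 678 were among the strongest of replicate 1 and 718 among those of replicate 3, and 8 were among neither. Across the 787, Spearman's rho of the replicate signals was 0.74 and paired summits lay a median of 25 bp apart. This is a description over peaks that share both libraries. The matched share was 81.14% for promoter peaks (Fisher's exact adjusted p = 0.109) and 73.98% for distal peaks (adjusted p = 0.0484). The difference from distal peaks of 4.417 percentage points did not hold when a partner in 1 replicate sufficed (2.62 for replicate 3, Fisher's exact adjusted p = 0.131, and 1.61 for replicate 1, adjusted p = 0.343). The set was derived from the same replicate lists, so matching is not independent of membership. Joint and replicate signals come from the same libraries, and the cut of 3974 entries equals the size of the set. The fall in matching over ranks is thus in part built in. With the strongest 6000 entries of each replicate, 95.55% of the proximal peaks were matched.

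**Figure D3:**
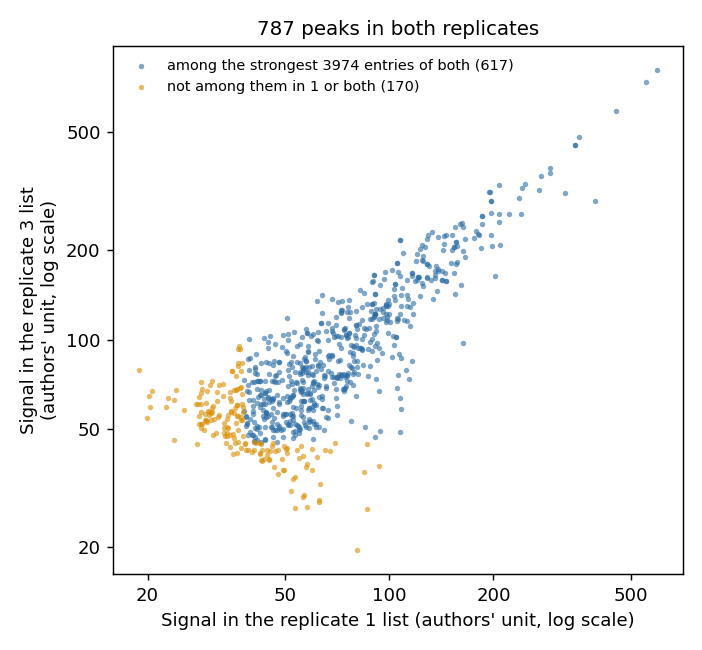
Signal of each proximal peak's strongest overlapping entry in replicate 1 and replicate 3 (authors' unit, both axes log scale), with 617 peaks among the 3974 strongest entries of both in blue and the other 170 in orange. Strong peaks lie along a narrow band and the orange points sit at the weak end.

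Genes with a proximal peak often had a promoter peak as well, and either could be the stronger. Of the 661 genes, 204 (30.86%, exact 95% interval 27.36 to 34.54%) also had a promoter peak, while 12.3% of all protein-coding genes had 1. This affected 256 proximal peaks, whose summits lay a median of 1671 bp from the strongest promoter peak of their gene. The proximal peak was stronger in 117 pairs (45.7%), in 82 of them in both replicates, and the promoter peak in 139, in 102 of them in both. The 5 strongest proximal peaks that exceeded their promoter peak were those of CG11050 (1400 against 148.9), cbt (1310 against 462), CG31635 (633.8 against 329.3), Trl (620.2 against 188.3) and for (537.3 against 435.3). Each of the 5 was stronger in both replicates. For CG11050 the values were 592.4 against 82.42 in replicate 1 and 810.9 against 65.69 in replicate 3. At for the pair was 23290 bp apart, because the gene has several start sites, and at CG11050 1871 bp. In 20 pairs, Act5C, gce, Poxm and dsx among them, both peaks overlapped the same entry in each replicate, so the replicates cannot order them.

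**Figure D4:**
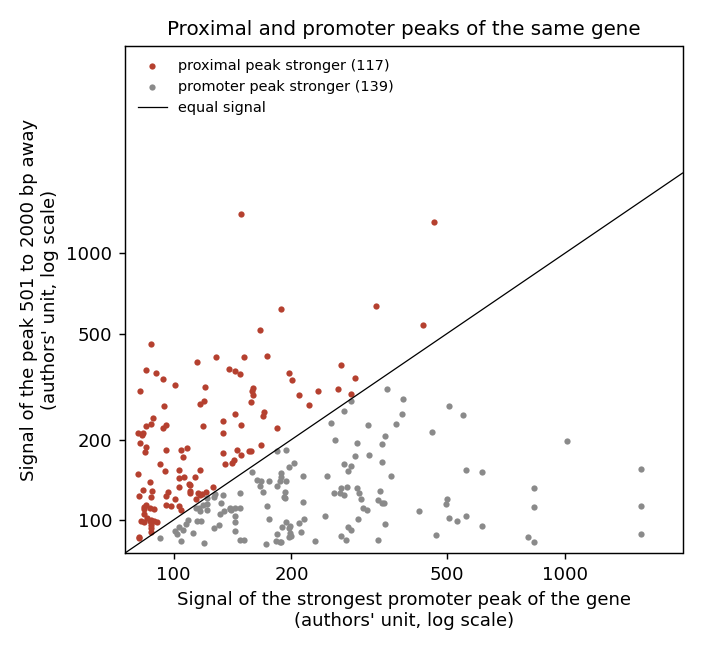
Signal of 256 proximal peaks against the strongest promoter peak of the same gene (authors' unit, both axes log scale), with the line of equal signal. Points above the line (red, 117) are proximal peaks stronger than the promoter peak, CG11050 and cbt highest, and grey points (139) are the reverse.

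Summits of proximal peaks were poor in G and C. Windows of 201 bp at the summit held 34.77% ± 6.90 G and C (SD, n = 787 peaks), and equal windows 1000 bp farther from the TSS held 40.98% ± 9.23. The summit was lower in 562 peaks (71.41%). All tiles of the zone averaged 43.48%. Promoter peaks had 34.97% and distal peaks 35.11% at the summit, so the 3 classes lay close together. Entries in the same zone from the lower-ranked part of the pooled list, which holds background by design, had 42.13% at the summit and 42.26% in the flank, with no dip. Among the 578 proximal peaks whose summit and flank were both intronic or intergenic the values were 34.45% and 39.08%. The dip was about as narrow as the summit windows, as the profile of composition shows.

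**Figure D5:**
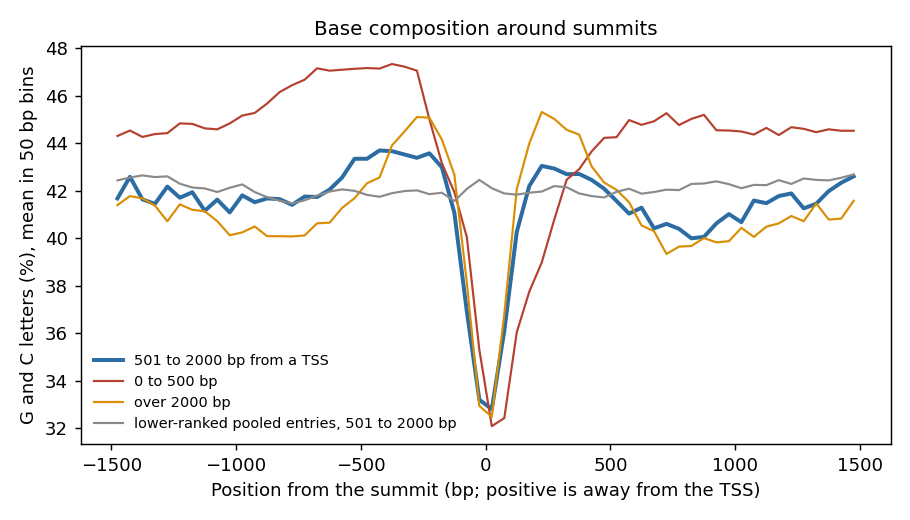
Mean share of G and C letters in 50 bp bins around the summit for proximal (blue), promoter (red) and distal peaks (orange) and for lower-ranked pooled entries in the proximal zone (grey), with positive positions away from the TSS. The 3 peak classes dip at the summit, and the lower-ranked entries stay near 42.13%.

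TGATAC was somewhat more frequent at proximal summits than beside them, short of the threshold. It occurred within 100 bp, on either strand, of 65 summits (8.26%, exact 95% interval 6.43 to 10.4%) and in 40 flanks (5.08%), a ratio of 1.62 (exact McNemar adjusted p = 0.0595 over 18 words and 3 classes). All tiles of the zone held it in 5.15%. Its share was 5.43% at promoter summits (Fisher's exact adjusted p = 0.0497) and 6.94% at distal summits (adjusted p = 0.591). Against their own flanks, distal summits passed the threshold, with a higher ratio of 2.56 (2.71% of flanks, exact McNemar adjusted p = 2.86e-06). Promoter summits had a ratio of 1.05 (5.16% of flanks). Taking the proximal peaks from replicate 3 alone gave a ratio of 1.743 past the threshold (exact McNemar adjusted p = 0.0344), and from replicate 1 alone 1.419 (adjusted p = 0.288). The ratio was also past the threshold with the flank on the TSS side (1.97, exact McNemar adjusted p = 0.005) and with the flank 500 bp away (1.625, exact McNemar adjusted p = 0.0439). Of the flanks on the TSS side, 78.3% were centred within 500 bp of a TSS, against 7.62% of the main flanks. They thus set proximal summits largely against promoter sequence. Of the 492 hexamers with as many G and C letters, 22 had a higher ratio, and their median was 1.1. The word was no more common at the top, with 6 of the 100 strongest proximal summits (6%) against 10% of their flanks. At the 5 sites whose sequence is given it lay 43 to 96 bp from the summit.

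Of 18 words of known factors, 1 (5.56%) was called more frequent at proximal summits, the general form of the Mef2 site, CTANNNNTA. It was at 36% of summits and 29.4% of flanks (ratio 1.23, exact McNemar adjusted p = 0.0312), and at 23.3% of tiles. That call was lost without replicate 3 (ratio 1.197, adjusted p = 0.102) and in 4 more of the 8 alternatives, among them the stronger 50% of the peaks (ratio 1.162, exact McNemar adjusted p = 0.438). The Mef2 form was not particular to proximal peaks. Its ratio was higher at promoter peaks (1.61, exact McNemar adjusted p = 4.02e-20) and at distal peaks (1.48, adjusted p = 6.14e-09). Words called less frequent were the E-box CACGTG (6 summits against 25 flanks, ratio 0.24, exact McNemar adjusted p = 0.00677) and the cAMP response element TGACGTCA (1 against 10, adjusted p = 0.0487). The former was lost in windows of 50 bp (exact McNemar adjusted p = 0.252) and among the stronger 50% of peaks (exact McNemar adjusted p = 0.441). The latter was lost in most alternatives, without replicate 1 (ratio 0.125, exact McNemar adjusted p = 0.105) and without replicate 3 (ratio 0.286, adjusted p = 0.485). Some words gained a call in alternatives, of which flanks on the TSS side were largely promoter sequence. The homeodomain word TAATTA, short of the threshold in the main comparison (ratio 1.195, exact McNemar adjusted p = 0.303), was more frequent at summits than in flanks on the TSS side (1.564, exact McNemar adjusted p = 0.00174) and 500 bp away (1.598, exact McNemar adjusted p = 0.000869), and the E-box CATATG than in flanks on the TSS side (1.553, exact McNemar adjusted p = 0.0457). The ETS word CCGGAA was less frequent in windows of 200 bp (0.4828, exact McNemar adjusted p = 0.000222), against flanks on the TSS side (0.5122, exact McNemar adjusted p = 0.0339) and without replicate 1 (0.4667, exact McNemar adjusted p = 0.012). These tests do not correct for the lower G and C content of summits. Over all hexamers the median ratio was 1.51 with 0 G or C letters, as in TAATTA, and 1.34 with 1. With 4, as in CACGTG and CCGGAA, it was 0.661. The fixed letters of the Mef2 form are mostly A and T, and the part of composition in its call was not tested. The MEF3 word TCAGGTTNC, named for sites of the vertebrate relatives of Six4 in muscle genes, was at 0 of 787 summits, which allows a share of up to 0.381% as 3 counts of 787 and of up to 0.468% by the exact 95% interval. It was in 0 of the flanks too and in 0.334% of tiles, which lies inside that range. The count of 0 thus does not set summits apart from the rest of the zone.

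Words of core promoters were rarer at proximal than at promoter summits. The classes were set by distance from a TSS, where such words lie, so this contrast is in part given by the rule. The DNA replication-related element TATCGATA was within 100 bp of 2 proximal summits (0.254%) and of 6.99% of promoter summits (Fisher's exact adjusted p = 1.38e-16). The site of Motif 1 binding protein, GGTCACACT, was at 1 (0.127%) and at 2.74% (Fisher's exact adjusted p = 5.23e-06). Tiles of the proximal zone held these words in 0.364% and 0.0773%, and tiles of promoter sequence were not counted. At distal summits the shares were 0.226% and 0.0754%, within the exact 95% intervals of the proximal shares. Proximal summits also held CACGTG less often than promoter summits (0.762% against 2.42%, Fisher's exact adjusted p = 0.0374) and the ETS word CCGGAA (2.67% against 4.94%, adjusted p = 0.0497), and the E-box CATATG more often (9.28% against 6.07%, adjusted p = 0.0408). Against distal summits 0 of the 18 words passed after adjustment (1 at an unadjusted p under 0.05), and the widest gap in points was that of the Mef2 form (36% against 33.5%, Fisher's exact adjusted p = 0.591).

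Over all 2080 hexamers, 193 (9.28%) were more frequent at proximal summits than in flanks and 319 (15.3%) less frequent. The direction went with composition. Of the 36 hexamers without G or C, 35 were more frequent and 0 less, and of the 36 made of G and C alone, 0 were more frequent and 20 less. The 5 hexamers with the highest ratios among those called more frequent and present at 2% or more of proximal summits held 1 to 4 G or C letters. ACAGTG was at 175 summits (22.2%) and 66 flanks (8.39%), a ratio of 2.65 (exact McNemar adjusted p = 1.5e-11), with 7.59% of tiles. AATAGT was at 22.2% and 9.15% (ratio 2.43, exact McNemar adjusted p = 9.33e-11) and ACACTG at 16% and 6.61% (ratio 2.42, adjusted p = 5.56e-07). ACCCTA had the highest ratio of these, 2.75 (6.99% against 2.54%, exact McNemar adjusted p = 0.000932), and the palindrome GTGCAC had 2.63 (9.02% against 3.43%, adjusted p = 0.000125). All 5 kept adjusted p-values under 0.05 without either replicate, with flanks 500 bp away or on the TSS side, and with intronic and intergenic windows alone. In windows of 50 bp ACCCTA (exact McNemar adjusted p = 0.102) and ACACTG (adjusted p = 0.244) lost the call, as did ACCCTA among the stronger 50% of peaks (exact McNemar adjusted p = 0.123).

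The other classes shared these hexamers in part. ACACTG had ratios of 2.51 at promoter and 3.06 at distal peaks, and ACAGTG of 2.2 and 2.04. GTGCAC had 1.04 at promoters (exact McNemar adjusted p = 0.867) and 3.2 at distal peaks (adjusted p = 7.51e-14), while ACCCTA had 2.4 at promoters (adjusted p = 2.2e-07) and 1.15 at distal peaks (adjusted p = 0.668). The differences between classes were not tested for these words. Among lower-ranked pooled entries in the proximal zone the 5 ratios ran from 1.02 to 1.26. Within the proximal peaks, ACAGTG was at 25.2% of summits among the stronger 50% of peaks and 19.3% among the weaker, and at 23% of intronic and 16.9% of intergenic summits.

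Several leading words shared the letters CACTG. The 5 words with the largest contrast among the 959, chosen after their values were seen and so given without a test, all contained CACTG or its reverse complement. CAGTGTAG was at 22 proximal summits (2.8%) and 0 flanks, CACTGAGA at 37 (4.7%) and 2, CCACTGTA at 32 and 4, ACACTGAG at 31 and 4, and ACAGTGGT at 22 and 3. These words are not independent. ACACTGAG and CACTGAGA overlap in all but their end letters, as do CCACTGTA and ACCACTGT, the reverse complement of ACAGTGGT. The same sites can thus be counted under more than 1 word. Promoter summits held CACTGAGA in 1.61% of cases and distal summits in 8.07%. CACTG itself was at 387 proximal summits (49.2%) and 234 flanks (29.7%), with 31.1% of all tiles, and 106 summits held it more than once. Its share was 42.2% at promoter summits, 51.3% at distal summits and 32.2% at lower-ranked pooled entries of the zone. None of the 22 windows with CAGTGTAG touched an annotated transposable element. Of all proximal windows 5 (0.635%) did, so this count says little of the word.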

How the data were processed

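Anti-GFP ChIP-seq peak lists of 2 biological replicates, a pooled list and a set thresholded by irreproducible discovery rate (IDR) were used, all on dm6 in narrowPeak form. Per the deposited file listing, the replicate lists came from that replicate's alignments and 1 further input whose content is not stated, and the IDR set was derived from the replicate and pooled lists. The aligner, the peak caller, its signal scale and the threshold of the IDR step are not stated here (not given in the sources used). Peak positions and signal values are the authors' own as deposited, and signal was used to rank and describe peaks within a list. The lists give no read numbers, so depth is unknown, and intervals (exact, Clopper-Pearson, 95%) cover counting error over peaks only. The dm3 lists were not used.

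From these lists each summit was placed by its nearest protein-coding TSS (Ensembl annotation, gene names from it), with distances of 501 to 2000 bp counted as proximal. Coordinates are counted from 1. The TSS with the higher coordinate was taken when 2 lay equally near. Annotation followed the order coding sequence, 5′ UTR, 3′ UTR, other exon, intron, intergenic, with transposable element genes left out. Shares were set against bases by exact binomial tests, classes against each other by Fisher's exact test, and words at summits against windows 1000 bp farther from the TSS by exact McNemar tests, all two-sided. The Benjamini-Hochberg adjustment was made within annotations, arms, each pair of class comparisons, words over 3 classes, or hexamers, with a threshold of 0.05. A replicate match needed 1 bp of overlap with the strongest overlapping entry. Named genes were those nearest to the 20 strongest proximal peaks, those with 3 or more (at most 10) and every list gene with a proximal peak. Further ones were Six4, the peaks at the bounds, and the 5 strongest with TGATAC, with CAGTGTAG or above their promoter peak. A few others are given as examples. Named hexamers were the 5 with the highest ratio among those called more frequent and at 2% or more of proximal summits. The members, lists and words were chosen with earlier results of these data known. The lists hold 2 entries with no value in the annotation used, which are not reported here. Python 3.11.15, numpy 2.4.6, scipy 1.17.1, pandas 2.3.3 and matplotlib 3.10.9 were used, and the statistics were tested on simulated data.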

Additional observations from a re-analysis of the deposited data

How the results depend on the processing

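No paired analysis was possible because both samples belong to 1 group. The share of peaks in the proximal zone was 19.78% without the weaker 50% of the set, short of the threshold, and 20.99% among intronic and intergenic peaks, where it lay above its bases rather than below. The upstream share was 50.27% there, short of the threshold. These 2 alternatives, and the one for words below, were added after seeing the data. The matched share moved to 95.55% with the strongest 6000 entries and 42.31% with the strongest 2000, and to 86.15 to 91.23% when 1 replicate sufficed. Its difference from distal peaks was 4.278 points with at least 50% of the peak covered, 0.5301 with 6000 entries and 1.61 to 2.62 with 1 replicate, each short of the threshold. Its difference from promoter peaks was -5.726 points with 2000 entries, past it. The proximal share among the strongest peaks was 6.607% for 250 and 25.03% for 1000, and the difference from distal peaks ran from 3.2 to 5.129 points with 1 replicate. More frequent words numbered 0 in 50 bp windows, in the stronger 50% and in intronic and intergenic windows, 4 with flanks on the TSS side, 3 with flanks 500 bp away and 0 to 2 with 1 replicate. Less frequent words numbered 0, 0 and 1 in the first 3 of these, 6 on the TSS side and 1 to 2 with 1 replicate. More frequent hexamers numbered 120 in 50 bp windows, 121 in 200 bp windows, 77 in the stronger 50% and 79 in intronic and intergenic windows, and less frequent ones 175, 151, 57 and 66. Of the other summary values, 24 with a test kept direction and side of the threshold, and 16 shares or counts without one stayed within the exact interval of the share or within 1.5 times the count. Of the values of single words and hexamers, 17 lost and 9 gained a call and 69 kept theirs. Causes were not tested. The number of peaks, not read depth, sets the precision.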
